A study of Mus musculus with 6 samples.

Results

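The genes described here are Hmga2 and 7 other genes of the let-7 oncofetal axis: its paralog Hmga1, the RNA-binding protein genes Lin28b, Igf2bp1, Igf2bp2 and Igf2bp3, the chromatin gene Arid3a and the microRNA-processing gene Dicer1. They are the rows of the deposited expression table whose mouse symbol in the GENCODE M21 annotation is one of these names, 8 of 22442 genes. All 8 were above 0 in at least 1 library, and 6 reached the mean of 0.5 FPKM (fragments scaled to the length of the gene and to the total of the library) above which genes were tested. Lin28b and Igf2bp3 stayed under it. Hmga2 was chosen by its FPKM values in these libraries, in which it was abundant and lower in one group, so its difference between the groups is given as a description with no test. The other 7 genes were chosen as its paralog, as genes known from other work to be let-7 targets, or as regulators of let-7, and the question was whether they moved with it.

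RNA was sequenced from mTECs, murine renal tubular epithelial cells, in 6 libraries. All 6 come from cells given LPS, the lipopolysaccharide of bacterial cell walls, at 20 μg/ml for 24 h. The cells of the 3 LPS libraries had been transfected with a negative control, and those of the 3 LPSKD libraries with an RNA meant to silence Stat3. No library came from cells without LPS. According to the labels the cells were sorted with magnets and given siRNA, whereas the study's methods describe an immortalised line and name both siRNA and shRNA, and both groups are the same kind of cell. The study's methods speak of experimental replicates for work with mTECs, but neither they nor the labels say of these libraries whether they came from separate cultures or days, so p-values measure the spread between these libraries.

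Stat3 itself, the targeted gene, was at 34.6, 31.4 and 35.2 FPKM in the LPS libraries and at 30.8, 35.2 and 34.3 FPKM in the LPSKD libraries. The groups overlapped (log2 fold change -0.01 ± 0.07 SE, adjusted p = 0.944, limma), so the level of its transcript did not separate them. The LPSKD group is therefore named by its label throughout. The study itself reports Stat3 knockdown in mTECs by real-time PCR and western blot, and does not say whether those cells were the ones sequenced. Of 15 tubule markers, 8 were at 5 FPKM or more in every library, among them Epcam, Cdh1, Cdh16, Krt8, Pax2 and Pax8. Below 0.1 FPKM in every library were 6, the proximal tubule genes Lrp2 and Slc34a1 and also Slc12a1, Slc12a3, Aqp2 and Calb1. The summed FPKM of the 15 was 3236 to 3314 in the LPS libraries and 3196 to 3229 in those labelled LPSKD. Of 9 tubule markers tested, Krt18 fell (log2 fold change -0.15) and Cdh16, Pax2, Pax8 and Aqp1 rose (0.27, 0.60, 0.39 and 0.93) by limma at an adjusted p under 0.05. Of 22 markers of immune cells, endothelium, fibroblasts and podocytes, 14 were tested, with 0 called by limma or by its voom method. An unadjusted p under 0.05 was seen for 2 of the 14, beside 2058 of all 11723 genes tested. The summed FPKM of the immune markers was 43.2 to 44.6 in the LPS libraries and 35.1 to 41.3 in those labelled LPSKD, and that of the podocyte markers was 48.4 to 54.1 and 42.0 to 46.7. The summed FPKM of the fibroblast markers was 24.1 to 31.4 and 16.5 to 30.5. The part of these differences in the results was not tested. Of 11723 genes tested, 379 (3.23%) were called by limma at an adjusted p under 0.05. In the libraries labelled LPSKD 195 of them (1.66%) were lower and 184 (1.57%) higher, and the median log2 fold change was -0.01.

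let-7 is a family of microRNAs that is scarce in embryonic tissue and abundant in differentiated cells. A microRNA guides an Argonaute protein to messenger RNAs whose 3′ untranslated region (3′ UTR) pairs with bases 2 to 8 of the microRNA, called the seed, and such messengers are translated less and degraded faster. Genes with let-7 sites include a set that is active in the fetus and again in many tumours, hence the name oncofetal. Hmga2, which encodes a small protein that bends DNA at AT-rich stretches, is the best known of them. LIN28B blocks the maturation of let-7, DICER1 makes mature let-7 from its hairpin, and let-7 can target both, so the axis holds feedback loops. The IGF2BP proteins bind messenger RNAs, among them that of the fetal growth factor IGF2, and affect their stability and translation.

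The mature sequences are shown because the shared seed defines the family, and the capitals mark bases 2 to 8. They are the RefSeq sequences for GRCm38, and all of those printed share the same 7 bases.
let-7a: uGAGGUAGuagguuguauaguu
let-7b: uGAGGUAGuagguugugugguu
let-7c: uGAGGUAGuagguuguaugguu
let-7d: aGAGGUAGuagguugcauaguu
let-7e: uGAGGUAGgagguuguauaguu
let-7f: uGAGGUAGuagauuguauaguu
let-7g: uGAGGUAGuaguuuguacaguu
let-7i: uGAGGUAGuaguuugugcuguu
miR-98: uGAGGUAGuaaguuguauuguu

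The libraries hold poly(A) RNA, so none of these microRNAs was measured. What could be read from the annotation was where the complement of the seed stands in each gene. Letters were matched on the transcript strand only, in the longest annotated 3′ UTR of each gene, as CTACCTC (7mer-m8), as CTACCTCA (8mer, the 7mer-m8 followed by an A) and as TACCTCA (7mer-A1) where it is not part of an 8mer. A match is a description of the sequence and was not measured as a binding site.

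The clearest contrast among the 8 genes was between Hmga2 and Igf2bp1, whose 3′ UTRs each hold 4 matches of the 8mer or 7mer-m8 kind. The 4 in Hmga2, in the transcript Hmga2-203 on the minus strand of chromosome 10, and the 3 8mers in Igf2bp1, in Igf2bp1-201 on the minus strand of chromosome 11, are printed with the 20 bases before each. Capitals mark the match, and coordinates are of GRCm38.
Hmga2, chr10:120364224-120364251: ggggcgccgacattcaatttCTACCTCA
Hmga2, chr10:120362988-120363014: ataatccccactcctcaataCTACCTC
Hmga2, chr10:120362550-120362576: acttcctgatttgcaaggaaCTACCTC
Hmga2, chr10:120361692-120361718: tgtacaatcaaaacacactaCTACCTC
Igf2bp1, chr11:95961778-95961805: gcagtgctgtgcgaagtaaaCTACCTCA
Igf2bp1, chr11:95959357-95959384: ggaaccagcagtgctattaaCTACCTCA
Igf2bp1, chr11:95958763-95958790: tacgagtataaatggatgaaCTACCTCA

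Hmga1, the paralog of Hmga2, holds a single 7mer-m8 and no 8mer, and Igf2bp2, Igf2bp3, Lin28b and Arid3a hold 1 8mer each. Dicer1 holds none of the 3 kinds in its 3′ UTR of 3851 bases, and has 3 8mers in its coding sequence, of which the first is printed. Arid3a also has 1 8mer and 1 7mer-m8 in its coding sequence, and Lin28b has 1 7mer-m8 there. The share of all coding sequences with a match was not counted. The printed matches are shown because they set the paralogs apart.
Hmga1, chr17:27563272-27563298, plus strand: tcttctcctctgttcacaaaCTACCTC
Igf2bp2, chr16:22059473-22059500, minus strand: gaaaaacacacaaataaaagCTACCTCA
Igf2bp3, chr6:49086787-49086814, minus strand: aaacgtgcatttttactcaaCTACCTCA
Lin28b, chr10:45381022-45381049, minus strand: ccttcacccgggcgggaagtCTACCTCA
Arid3a, chr10:79953890-79953917, plus strand: catgcaaggcaagtttctttCTACCTCA
Dicer1, coding, chr12:104702804-104702831, minus strand: ggaaatacctgtacaaccaaCTACCTCA

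Hmga2, Lin28b and Igf2bp1 were the members with 4 matches of the 8mer or 7mer-m8 kind, and over all 21022 annotated 3′ UTRs 0.0571% held 4 or more. Among 3′ UTRs within 20% of the same length, 3 of 2246 (0.134%) held at least as many as Hmga2. For Lin28b it was 3 of 1270 (0.236%) and for Igf2bp1 2 of 563 (0.355%). Each of these counts and shares includes the gene itself. A single match is common by comparison, and 9.02% of all 3′ UTRs held 1 or more. In Hmga2 the 8mer stands at base 58 of 3014, near the stop codon, whereas the 3 8mers of Igf2bp1 stand at bases 1715, 4136 and 4730 of 6337.

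**Figure D1:**
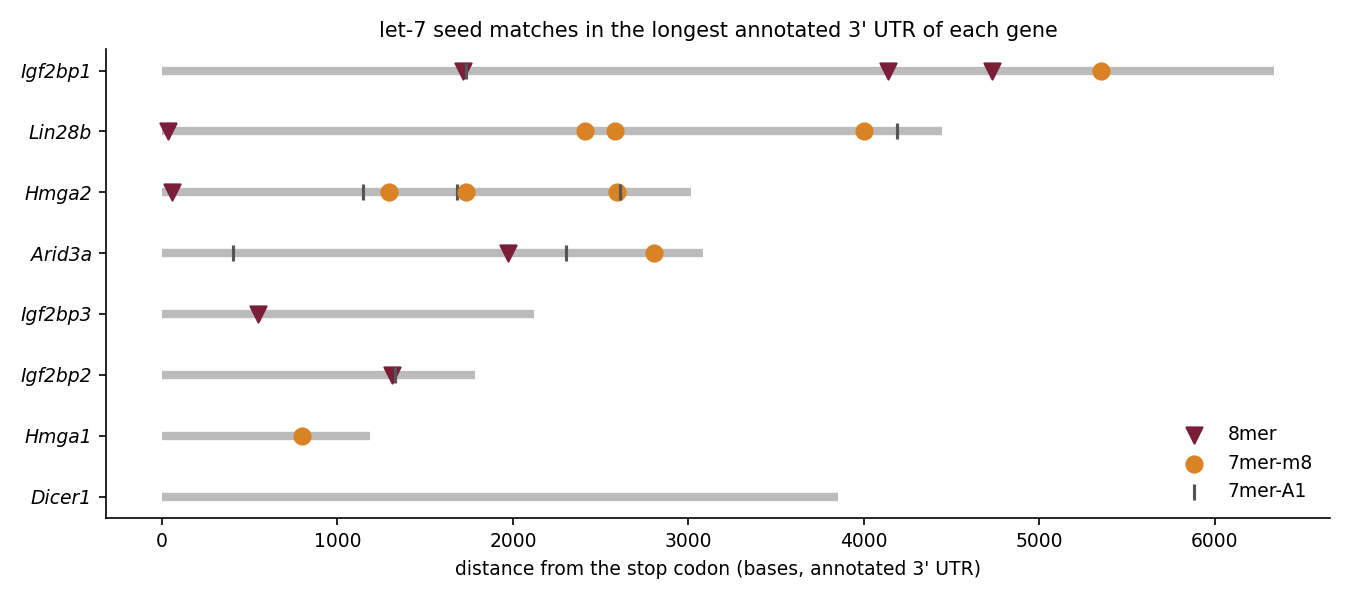
Positions of let-7 seed matches along the longest annotated 3′ UTR of each of the 8 genes, in bases from the stop codon, with triangles for 8mers, circles for 7mer-m8 and ticks for 7mer-A1 matches. Hmga2, Lin28b and Igf2bp1 each carry 4 triangles or circles, Hmga1 carries 1 circle, and the bar of Dicer1 is empty.

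Hmga2 (ENSMUSG00000056758, chr10:120361275-120476469, minus strand) was at 321, 343 and 341 FPKM in the LPS libraries and at 191, 195 and 182 FPKM in those labelled LPSKD. The 3 libraries labelled LPSKD all lay far below the 3 LPS libraries. The means were 335 ± 12.2 and 189 ± 6.63 FPKM (SD, n = 3 each), a difference of -43.4% and of -0.82 ± 0.04 on the log2 scale, which is the difference the gene was chosen for. When each library was left out in turn, the difference stayed between -0.85 and -0.79. The values rest on 1963 to 3619 fragments per library. Of the 398 stretches of 31 bases in its coding sequence, 141 (35.4%) also occur in a transcript of another gene, the processed pseudogene Gm38158 or the antisense gene 1700006J14Rik, neither of which has a row in the table, and where strand is not counted their reads cannot be told apart from those of Hmga2. In bulk RNA, fewer cells that express a gene and less of its RNA per cell cannot be told apart either.

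Hmga1 (ENSMUSG00000046711, chr17:27556497-27563674, plus strand), which encodes the other DNA-bending protein of this family, was the most abundant of the 8 genes. It was at 824, 831 and 828 FPKM in the LPS libraries and at 805, 774 and 811 FPKM in those labelled LPSKD. The groups did not overlap, yet the means of 828 ± 3.58 and 796 ± 19.8 FPKM lay close together. The log2 fold change was -0.06 ± 0.03 (SE, limma), with a 95% interval of -8.49% to 1.06% and an adjusted p of 0.399. A change of the size seen in Hmga2 lies outside this interval. Over the 16 alternative settings the adjusted p of Hmga1 was between 0.372 and 0.679.

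Part of the Hmga1 signal cannot be separated from that of Hmga1b (ENSMUSG00000078249), a near-identical copy with its own row. Of the 504 stretches of 31 bases in the Hmga1 coding sequence, 328 (65.1%) also occur in Hmga1b. Hmga1b was at 346 ± 7.91 FPKM in the LPS libraries and at 329 ± 20.0 FPKM in those labelled LPSKD, and the groups overlapped (log2 fold change -0.07, limma adjusted p = 0.467). Added together, the fragments of both rows, scaled to the library total were 480 ± 2.07 and 460 ± 16.6 CPM. An exact permutation test of this sum, two-sided, gave p = 0.1, the smallest p that 3 libraries against 3 allow.

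Within each library, Hmga2 was therefore lower relative to its paralog in one group. The ratio of Hmga2 to Hmga1 FPKM was 0.389, 0.413 and 0.412 in the LPS libraries and 0.238, 0.252 and 0.225 in those labelled LPSKD. The difference of the log2 ratio was -0.77, and between -0.81 and -0.72 with each library left out. It carries the choice of Hmga2 and is not tested.

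**Figure D2:**
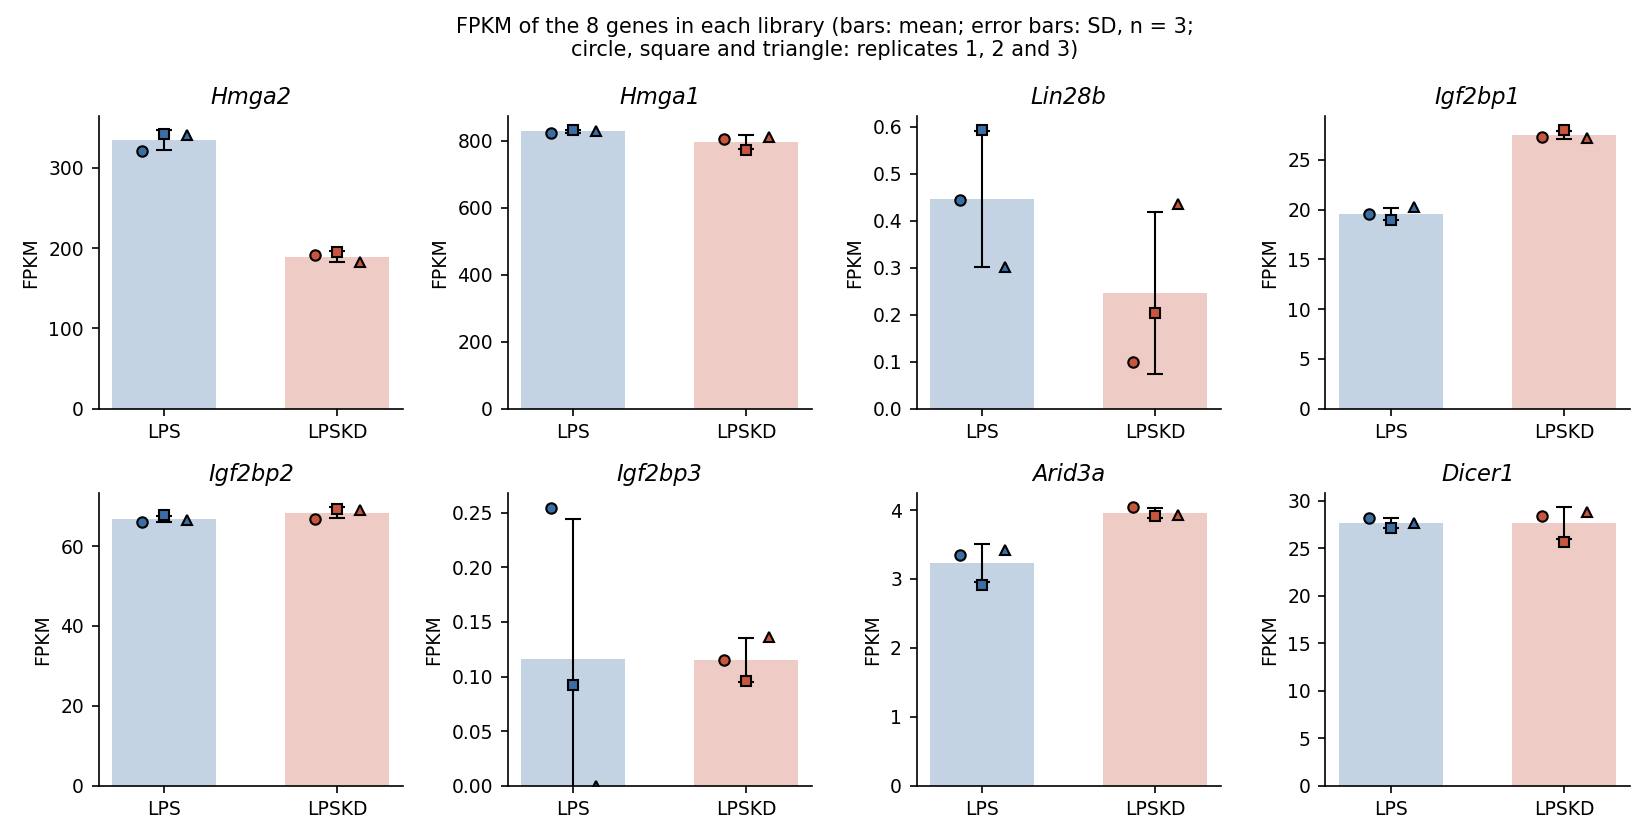
FPKM of the 8 genes in each library, with bars for the mean of 3 libraries, error bars for the SD and 1 symbol per replicate, each panel on its own axis from 0. Hmga2 is lower and Igf2bp1 higher in every library labelled LPSKD, while Igf2bp2 and Dicer1 overlap.

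Igf2bp1 (ENSMUSG00000013415, chr11:95957163-96005940, minus strand) moved the opposite way from Hmga2. This gene, an oncofetal RNA-binding protein gene that is mostly silent in adult tissue, was at 19.5, 18.9 and 20.2 FPKM in the LPS libraries and at 27.3, 28.0 and 27.2 FPKM in those labelled LPSKD. All 3 libraries labelled LPSKD stood above all 3 LPS libraries. It rose from 19.6 ± 0.650 to 27.5 ± 0.410 FPKM, by 40.6% in the means, and the 95% interval of the fitted change was 29.0% to 52.9%. The log2 fold change was 0.49 ± 0.05 (SE) with an adjusted p of 0.0022 in limma, and it passed the threshold under all 16 alternatives, with adjusted p-values from 0.000218 to 0.0194. The values rest on 815 to 1198 fragments per library. Of the 7 genes other than Hmga2, 5 were tested and Igf2bp1 was the 1 called, beside 3.23% of all genes tested in either direction and 1.57% in the higher one. With voom on the recovered fragments, Igf2bp1 was again the 1 called of 5, beside 5.1% of all genes.

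Igf2bp2 (ENSMUSG00000033581, chr16:22059009-22163299, minus strand), a paralog that adult tissues also express, was the more abundant of the pair and did not pass the test. It was at 66.1, 67.7 and 66.6 FPKM in the LPS libraries and at 66.8, 69.3 and 69.0 FPKM in those labelled LPSKD, and the groups overlapped. The log2 fold change was 0.03 ± 0.04 (SE) with a limma adjusted p of 0.712 and a 95% interval of -3.62% to 8.72%, which leaves out the change of Igf2bp1.

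The ratio of Igf2bp1 to Igf2bp2 was 0.295, 0.280 and 0.304 in the LPS libraries and 0.409, 0.404 and 0.395 in those labelled LPSKD. The groups did not overlap, and the log2 ratio differed by 0.46. The exact permutation test, two-sided, gave p = 0.1, the smallest that 20 assignments of the labels allow.

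Igf2bp3 (ENSMUSG00000029814, chr6:49085223-49214957, minus strand), the third paralog, was hardly detected. It was at 0.254, 0.0925 and 0 FPKM in the LPS libraries, or 11, 4 and 0 fragments. In those labelled LPSKD it was at 0.115, 0.0956 and 0.136 FPKM, or 5, 4 and 6 fragments. At this depth no difference of Igf2bp3 could be seen, and its 95% interval ran from -44.7% to 132% (adjusted p = 0.890 in the limma fit without a filter).

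Lin28b (ENSMUSG00000063804, chr10:45376620-45486395, minus strand), the blocker of let-7 maturation, was also near the limit. It was at 0.445, 0.593 and 0.302 FPKM in the LPS libraries and at 0.0985, 0.204 and 0.435 FPKM in those labelled LPSKD, which is 9, 12 and 6 fragments and 2, 4 and 9 fragments. The groups overlapped, and in the limma fit without a filter the log2 fold change was -0.74 ± 0.42 (SE) with an adjusted p of 0.503. Its interval of -69.9% to 18.7% holds a fall as large as that of Hmga2 as well as no change. Lin28a, its paralog, was at 0 in all 6 libraries.

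Arid3a (ENSMUSG00000019564, chr10:79927043-79955018, plus strand) encodes a DNA-binding protein first described in B cells. It was at 3.34, 2.92 and 3.43 FPKM in the LPS libraries and at 4.04, 3.91 and 3.92 FPKM in those labelled LPSKD. The groups did not overlap and the libraries labelled LPSKD were the higher ones, but the difference did not pass the test (log2 fold change 0.29 ± 0.13 SE, limma adjusted p = 0.286). With 131 to 182 fragments per library, the 95% interval ran from -0.0812% to 49.5%. Hmga1, Igf2bp1 and Arid3a were the 3 of the 5 tested genes whose groups did not overlap, beside 23.8% of all genes tested.

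Dicer1 (ENSMUSG00000041415, chr12:104687742-104751952, minus strand), the enzyme that cuts hairpins to mature microRNAs, was at 28.2, 27.1 and 27.7 FPKM in the LPS libraries and at 28.3, 25.7 and 28.8 FPKM in those labelled LPSKD. The groups overlapped and both means were 27.6 FPKM. The log2 fold change was -0.00 ± 0.06 (SE, limma adjusted p = 0.985), and a change beyond -9.20% or 9.57% lies outside its 95% interval. Its sign changed among the alternatives, from -0.04 to 0.05.

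By mean FPKM, which is a level per length of coding sequence, the order was Hmga1, Hmga2, Igf2bp2, Dicer1, Igf2bp1, Arid3a, Lin28b and Igf2bp3. The neighbours Dicer1 and Igf2bp1 were separate in the LPS libraries and overlapped in those labelled LPSKD. Lin28b and Igf2bp3 overlapped in the libraries labelled LPSKD. The other neighbours did not overlap in either group.

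Of 44 other genes named in earlier work as let-7 targets, 40 were tested and as many were lower as higher, 20 and 20, with a median log2 fold change of -0.00 beside -0.01 for all genes. By limma 2 were called (5%), beside 3.23% of all genes tested. Slc20a1, which encodes a phosphate transporter, fell from 135 ± 1.29 to 108 ± 3.77 FPKM, with the LPS libraries at 134, 136 and 134 FPKM and those labelled LPSKD at 105, 106 and 112 FPKM. Its log2 fold change was -0.32 ± 0.04 (SE, limma adjusted p = 0.0032). Thbs1, which encodes the matrix protein thrombospondin 1, rose from 169 ± 6.94 to 207 ± 2.12 FPKM, with values of 176, 162 and 169 FPKM against 204, 207 and 209 FPKM. Its log2 fold change was 0.29 ± 0.04 (SE, limma adjusted p = 0.0057), and it lost the call in the fit without a trend (adjusted p = 0.0629, range over the alternatives 0.000117 to 0.0629).

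The 3 most abundant of these targets did not pass the test and lay near 0. Ccnd1, which encodes cyclin D1, was at 935 ± 61.0 and 937 ± 14.1 FPKM (log2 fold change 0.01, limma adjusted p = 0.969). The histone chaperone gene Nap1l1 was at 562 ± 33.3 and 591 ± 9.44 FPKM (0.07, adjusted p = 0.451). The transcription factor gene Myc was at 270.0 ± 8.50 and 259 ± 4.65 FPKM (-0.06, adjusted p = 0.448). The groups overlapped for all 3. Of the 40, 6 had an unadjusted p under 0.05, beside 2058 of all 11723 genes tested. For 8 the groups did not overlap, 6 of them lower, beside 13.2% lower and 10.6% higher among all genes tested.

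**Figure D3:**
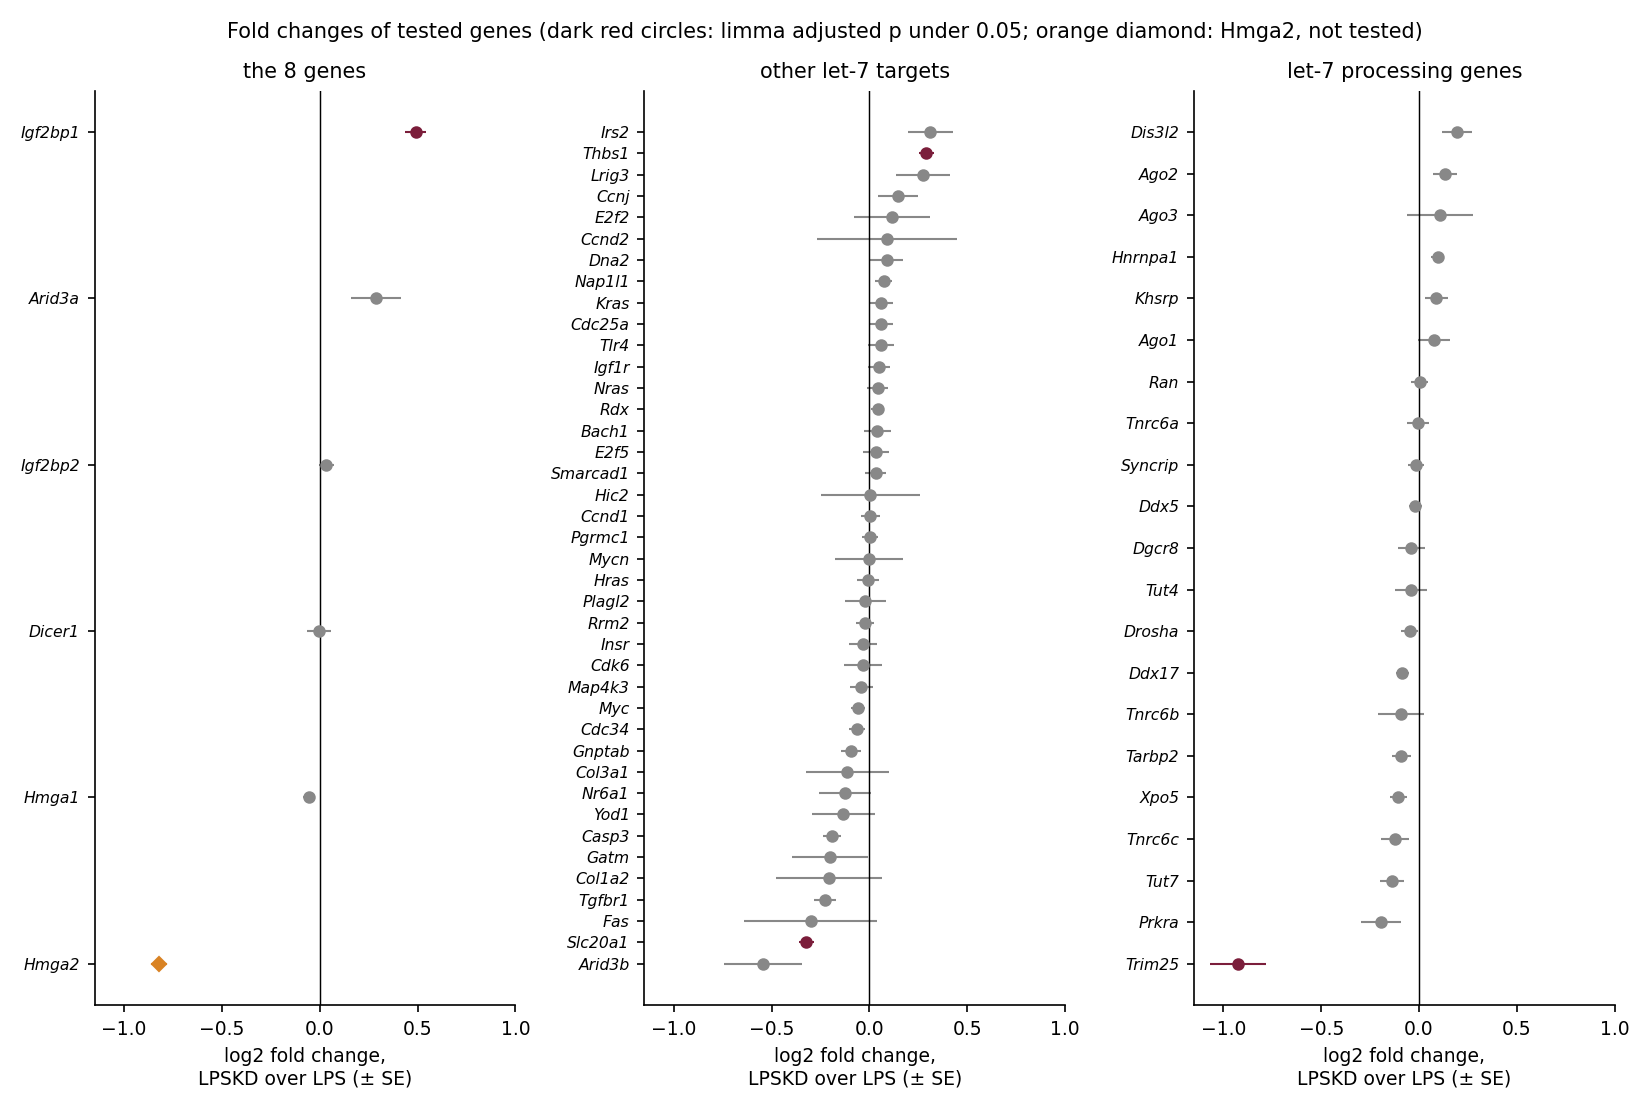
Log2 fold changes, libraries labelled LPSKD over the LPS libraries, with SE from limma, for the tested genes among the 8 (left), the other let-7 targets (middle) and the let-7 processing genes (right), where dark red marks an adjusted p under 0.05. Hmga2, drawn as a diamond and not tested, lies at -0.82, Igf2bp1 at 0.49, and 20 of the 40 other targets lie on each side of 0.

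Genes that make, trim or load let-7 were given as a list of 23, of which 21 were tested. Of these 14 were lower and 7 higher, with a median log2 fold change of -0.04, and 1 was called by limma (4.76%), beside 3.23% of all genes. The groups did not overlap for 9 of the 21, 7 lower and 2 higher, beside 13.2% lower and 10.6% higher among all genes tested, and 6 had an unadjusted p under 0.05, beside 2058 of 11723. The called gene was Trim25, an E3 ligase gene named as a cofactor of let-7 turnover and also known as an interferon-inducible gene. It was at 10.2, 8.75 and 8.90 FPKM in the LPS libraries and at 3.92, 5.52 and 5.19 FPKM in those labelled LPSKD, with no overlap. It fell by 0.93 on the log2 scale (SE 0.14, limma adjusted p = 0.0112), and lost the call in the fits without a trend and with the replicate number as a block (adjusted p = 0.0586 and 0.0525).

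The core of the pathway did not pass the test. Drosha, which cuts the primary transcript, had a log2 fold change of -0.05 (limma adjusted p = 0.609), and Xpo5, which exports the hairpin, of -0.11 (adjusted p = 0.249). Ago2, the Argonaute that cuts targets, had a value of 0.13 (adjusted p = 0.316), and Tut7, which adds uridines to let-7 precursors, of -0.14 (adjusted p = 0.281). The 3 most abundant genes of the list, Hnrnpa1, Ran and Ddx5, had values of 0.10, 0.00 and -0.02 with adjusted p-values of 0.174, 0.985 and 0.824.

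Some let-7 hairpins lie inside protein-coding genes, whose transcripts are in the table. Huwe1, a ubiquitin ligase gene whose span holds the hairpins of mir-98 (chrX:151913214-151913321) and let-7f-2 (chrX:151912346-151912428), was at 92.1 ± 3.46 FPKM in the LPS libraries and at 91.0 ± 2.90 FPKM in those labelled LPSKD (log2 fold change -0.02, limma adjusted p = 0.887). Wdr82, whose span holds let-7g (chr9:106178840-106178927), was at 50.0 ± 3.55 and 51.6 ± 2.18 FPKM (0.05, adjusted p = 0.752). Spaca6, whose span holds let-7e (chr17:17830352-17830444), was at 18.6 ± 1.68 and 17.4 ± 1.12 FPKM (-0.10, adjusted p = 0.604). The groups overlapped for all 3, and the level of a host transcript is not the level of its microRNA.

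The count of seed matches was then set against the fold change of every tested gene with an annotated 3′ UTR, with Hmga2 left out because its change was known. Of these 11616 genes, 376 (3.24%) were called. Among the 9705 with no match of any kind, 327 (3.37%) were called, with a median log2 fold change of -0.01. Among the 1172 with 1 or more 8mer or 7mer-m8 matches, 30 (2.56%) were called, 18 lower and 12 higher, also with a median of -0.01. In both classes 52.4% of the genes were lower. The classes differed in 3′ UTR length, with a median of 945 bases without a match and of 2316 bases with 1 or more.

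With 2 or more matches, 4 of 142 genes (2.82%) were called, 2 in each direction, and the median log2 fold change was 0.00. The 4, named after their values were seen, were Igf2bp1 and the kinase gene Styk1, which rose (0.49 and 0.29), and the meiotic ATPase gene Trip13 and the interferon-inducible gene Parp14, which fell (-0.23 and -1.73). With 3 or more matches, 1 of 20 was called, Igf2bp1.

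Besides Hmga2, 7 tested genes had 4 or more matches, and Igf2bp1 was the 1 called. The nuclear receptor gene Nr6a1, with 8 matches the richest of them, was at 9.58, 6.91 and 7.53 FPKM in the LPS libraries and at 7.74, 6.72 and 7.36 FPKM in those labelled LPSKD, with overlap (log2 fold change -0.12, limma adjusted p = 0.688). Trim6, with 6 matches, had a value of 0.15 (adjusted p = 0.605). The other 4, Hic2, Nudt12, Zbtb37 and D10Wsu102e, had values from -0.10 to 0.11 with adjusted p-values of 0.536 or more. The annotated 3′ UTRs of D10Wsu102e and Zbtb37 are much longer than that of Hmga2, at 122583 and 16999 bases beside 3014. Trim71, Mcf2l, Ptafr and Lin28b also had 4 or more matches and were under the filter.

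**Figure D4:**
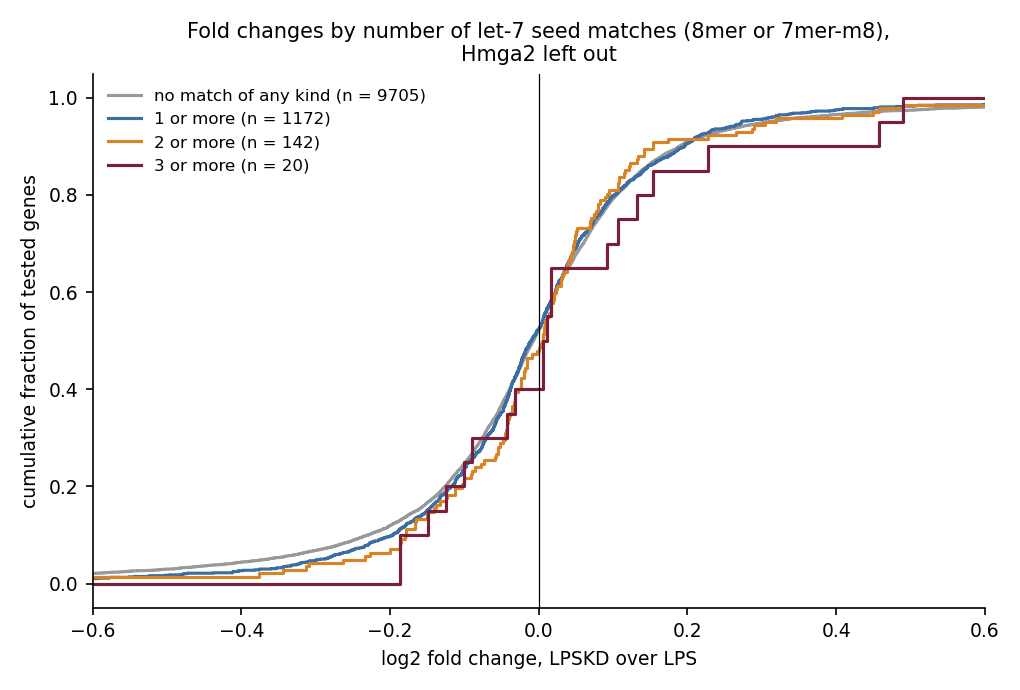
Cumulative fraction of tested genes by log2 fold change, libraries labelled LPSKD over the LPS libraries, for genes with no let-7 seed match of any kind (n = 9705) and with 1 or more (n = 1172), 2 or more (n = 142) and 3 or more (n = 20) matches of the 8mer or 7mer-m8 kind, Hmga2 left out. The curves cross near 0, with medians from -0.01 to 0.01.

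Hmga2 is known from other work to act on a set of genes, and 5 of 8 listed here were tested. By limma or its voom method 0 were called, beside 3.23% and 5.1% of all genes tested. An unadjusted p under 0.05 was seen for 1 of the 5, beside 2058 of all 11723. The most abundant were the cyclin genes Ccna2 (log2 fold change 0.01, limma adjusted p = 0.905) and Ccnb2 (-0.01, adjusted p = 0.948) and the AP-1 gene Junb (-0.01, adjusted p = 0.957). Id2, which encodes an inhibitor of basic helix-loop-helix factors, was at 24.5, 26.8 and 29.6 FPKM in the LPS libraries and at 34.1, 36.1 and 30.9 FPKM in those labelled LPSKD. The groups of Id2 did not overlap and the adjusted p was 0.0876. Snai1, Snai2 and Twist1, genes of epithelial to mesenchymal transition, were under the filter. Snai1 was at 0.608, 0.659 and 0.568 FPKM in the LPS libraries and at 0.252, 0.209 and 0.496 FPKM in those labelled LPSKD. Its groups did not overlap, on 4 to 13 fragments per library. In the limma fit without a filter its log2 fold change was -0.82 ± 0.33 (SE, adjusted p = 0.331). The groups of Snai2 and Twist1 overlapped (log2 fold changes -0.10 and 0.40).

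The 7 other high-mobility-group genes tested had 0 calls by limma or voom, beside 3.23% and 5.1% of all genes tested. An unadjusted p under 0.05 was seen for 1, beside 2058 of all 11723. Of the 7, 6 had higher values in the libraries labelled LPSKD and 1 lower, with a median log2 fold change of 0.08. The 3 most abundant were Hmgn1 at -0.01 (adjusted p = 0.961), Hmgb2 at 0.08 (adjusted p = 0.468) and Hmgb3 at 0.09 (adjusted p = 0.313).

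Fetal growth genes, among them Igf2, whose messenger the IGF2BP proteins bind, gave a mixed picture in which the calls changed with the libraries used. Of 12 genes listed, H19 was not analysed here, and 8 were tested. By limma 0 were called, beside 3.23% of all genes tested, and by voom 1, Grb10, beside 5.1%. Of the 8, 2 had an unadjusted p under 0.05, beside 2058 of all 11723, and the median log2 fold change was 0.90. Igf2 was at 11.7, 3.26 and 2.84 FPKM in the LPS libraries and at 9.39, 10.5 and 9.28 FPKM in those labelled LPSKD. LPS replicate 1 therefore stood with the libraries labelled LPSKD, while the other two of its group stood apart (log2 fold change 1.01 ± 0.45 SE, adjusted p = 0.293).

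The same library was the high one of its group for Cdkn1c, a growth-limiting cell cycle inhibitor, at 2.94, 0.446 and 0.644 FPKM against 2.15, 2.46 and 2.73 FPKM. It was also the high one for Dlk1, at 1.65, 0.757 and 0.268 FPKM against 1.87, 1.33 and 1.52 FPKM. Grb10, an adaptor that limits insulin and IGF signalling, was at 0.494, 0.112 and 0.0458 FPKM against 0.649, 0.790 and 0.924 FPKM, and its groups did not overlap (log2 fold change 1.74 ± 0.58 SE, limma adjusted p = 0.171). With voom Grb10 had a log2 fold change of 2.37 and an adjusted p of 0.0404, on 2 to 42 fragments per library. Peg3, a zinc-finger gene and the most abundant of the list, was at 311 ± 9.73 and 286 ± 10.1 FPKM (-0.12, adjusted p = 0.171).

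Without LPS replicate 1, 2 of the 8 were called by limma, beside 357 of all genes tested. Igf2 then had a log2 fold change of 1.64 ± 0.12 (SE, adjusted p = 0.000583) and Cdkn1c of 1.99 ± 0.27 (adjusted p = 0.0090). Dlk1 and Grb10 did not pass (adjusted p = 0.0996 and 0.0531). The library left out was the high one of its group for Igf2 and Cdkn1c, so these p-values carry no weight as tests. With all libraries the limma adjusted p was 0.293 for Igf2 and 0.298 for Cdkn1c. Without LPSKD replicate 1, 1 of the 8 was called, beside 176 of all genes tested. It was the fetal serum protein gene Afp, with a log2 fold change of 1.31 (limma adjusted p = 0.0404). The library left out was the low one of its group for Afp, so this p-value carries no weight as a test either. With all libraries Afp was at 1.21, 1.56 and 1.68 FPKM in the LPS libraries and at 1.25, 4.20 and 3.42 FPKM in those labelled LPSKD, with overlap (adjusted p = 0.351). Of 5 endothelial markers, Pecam1, Emcn and Cdh5 were also highest of the LPS libraries in replicate 1, whereas Kdr and Tek were highest in replicate 3. Pecam1 was at 1.52, 0.633 and 0.497 FPKM in the LPS libraries and at 1.13, 1.18 and 1.50 FPKM in those labelled LPSKD. The summed FPKM of the 5 endothelial markers was 2.67 to 5.21 in the LPS libraries and 3.12 to 5.32 in the others, and their part in the result was not tested.

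**Figure D5:**
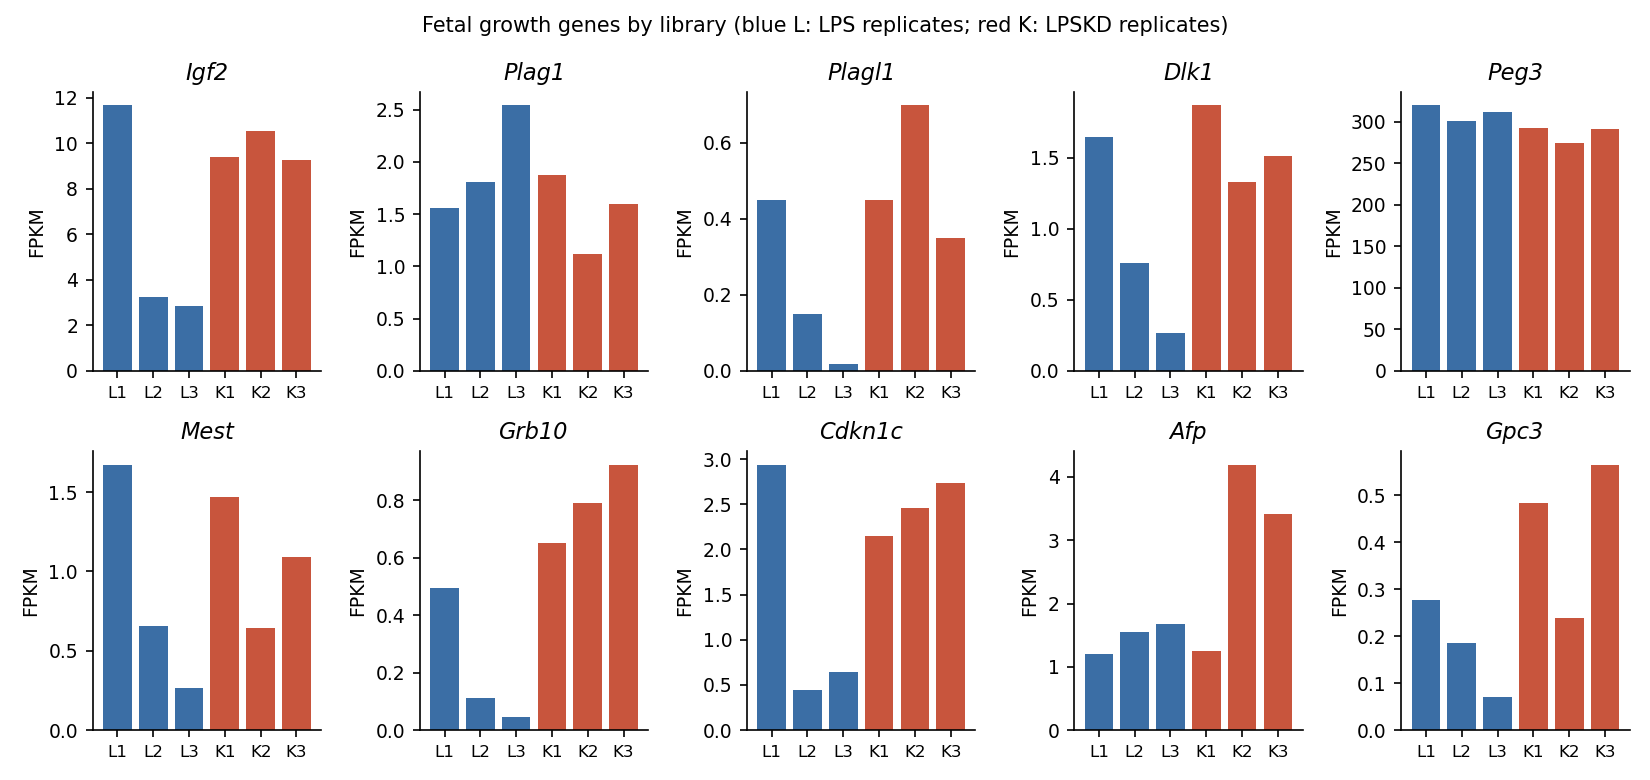
FPKM of 10 fetal growth genes in each library, with blue bars for LPS replicates 1 to 3 (L1 to L3) and red bars for LPSKD replicates 1 to 3 (K1 to K3), each panel from 0. For Igf2, Dlk1 and Cdkn1c the bar L1 is near the red bars and L2 and L3 are lower, whereas the 6 bars of Peg3 lie between 274 and 319.7 FPKM.

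The 5 genes whose pattern over the 6 libraries was most like that of Hmga2 were Myo7b, S100a7a, Gsdma, Samd9l and Il33, among 9356 genes with a mean of at least 5 FPKM. Likeness was the root mean square difference of the log2 values after each gene was centred on its own mean. Myo7b, an unconventional myosin of the brush border, was nearest at 0.0630 and went from 7.89 ± 0.117 to 4.63 ± 0.180 FPKM. S100a7a, at 0.0665, went from 129 ± 0.505 to 77.3 ± 1.62 FPKM, and Gsdma, a gasdermin gene with close paralogs, at 0.0670, from 12.9 ± 0.623 to 7.62 ± 0.111 FPKM. Samd9l was at 0.0917 and the cytokine gene Il33 at 0.0944. These genes were picked for the likeness, so it carries no test.

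The promoters of the 8 genes were searched for the letters of a STAT binding motif, TTC and GAA with any 3 bases between them, which read the same on both strands. The windows were the 300 bases around each RefSeq gene start in GRCm38. Of the 8 genes, 6 had an entry, and 0 of the 6 held the letters, beside 9.55% of all 27025 gene symbols. Igf2bp1 and Arid3a had no entry. No match says only that the letters are not in this window.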

How the data were processed

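RNA-seq libraries of mTECs were compared, 3 labelled LPS and 3 labelled LPSKD, and all were used. The table deposited by the authors holds an unpooled FPKM value for each gene in each library. The submitters' processing notes name Bowtie 0.12.2, HISAT2 2.0, StringTie 1.3.0 and the builds mm8 and GRCh38.p13 (a human build), with no role or order, and which of them made the FPKM values is not given in the sources used here. Identifiers were matched to GENCODE M21 (GRCm38), with 22399 of 22442 given a symbol. The depth was recovered as the library totals at which values became whole fragments (tolerance 0.01). This held for all 16837 genes above 0. For 97.8% of them the length was that of the merged coding sequence, with at most 10 bases added, and for 377 it was found by search. With totals raised by 0.1%, 2.14% of 11010 genes came out whole. The totals were 24084827 to 25422171 fragments, and replicates differed by more than counting noise (chi-square per gene 4.05 to 10.5).

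Differences were tested with limma 3.58.1 in R 4.3.3 (lmFit, eBayes with trend) on log2(FPKM + 0.1), so fold changes of low genes are understated. Genes averaging 0.5 FPKM or more were tested without covariates, with Benjamini-Hochberg adjustment over all of them and a call at 0.05. Lin28b, Igf2bp3, Snai1, Snai2 and Twist1 were read from a fit of all genes above 0. Intervals in percent are of the fitted fold change, whereas percent changes are of the mean FPKM. Intervals from the fit reflect the spread between libraries. The ratio of Igf2bp1 to Igf2bp2 and the sum of Hmga1 and Hmga1b were tested with exact permutation tests. Neither test was planned, and that of Igf2bp1 to Igf2bp2 was added after the data were seen. The ratio of Hmga2 to Hmga1 was not tested. The fit was also run on simulated counts with the same dispersion set for every gene, so that run says nothing of the calls reported here.

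The members and lists were chosen with earlier results of these data known. Genes named are the 8 members, Stat3, called genes of each list (up to 6) with its 3 most abundant genes, host genes of let-7 hairpins above 0 in the table, and the 5 genes most like Hmga2. Hmga1b, the markers, the genes with 2 or more seed matches and the further list genes were named after their values were seen. Sequences came from RefSeq and from GENCODE M21 transcripts. Alternatives were pseudocounts of 1 and 0.01, mean FPKM filters of 1 and 0.1 and no filter, quantile normalization, median centring, a block for the replicate number, eBayes without trend, leaving out each library and, chosen after seeing the data, voom on the recovered fragments. Python 3.11.15, numpy 2.4.6, pandas 2.3.3 and matplotlib 3.10.9 were used.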

Additional observations from a re-analysis of the deposited data

How the results depend on the processing

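Among the 5 tested members other than Hmga2, the call of Igf2bp1 and the absence of a call for the others held under all 16 alternatives. The number of all genes called, 379, was 140 without a trend, 213 with the replicate block, 598 with voom and 158 to 357 with 1 library left out, lowest without LPS replicate 3. Without LPS replicate 1 it was 154 lower and 203 higher, and without a trend 84 lower and 56 higher, against 195 and 184. The 30 called genes with a seed match became 19 with no filter, 13 without a trend, 16 with the replicate block, 50 with voom and 12 to 27 with 1 library left out. They were 13 when only 8mers counted and 49 when all 3 kinds counted. Other let-7 targets called went from 2 to 1 without a trend, and let-7 processing genes from 1 to 0 without a trend and to 0 with the replicate block. Fetal growth genes called went from 0 to 1 with voom (Grb10) and to 0 to 2 with 1 library left out. They were 2 without LPS replicate 1 (Igf2 and Cdkn1c) and 1 without LPSKD replicate 1 (Afp, log2 fold change 1.31, limma adjusted p = 0.0404). In each case the library left out stood apart from its group for the genes called, so these calls carry no weight as tests. No other call of a named list moved with the block. The replicate numbers did not pair the libraries, since the deviations of same-numbered libraries correlated at -0.016, -0.0039 and -0.043. The causes of these changes were not tested. Depth limits Lin28b and Igf2bp3, which rested on 12 fragments or fewer in every library.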
